A study of Mus musculus with 16 samples.

Results

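The Wnt ligands, their receptors, their secreted antagonists and a pair of feedback genes were measured in 12 mouse skin carcinomas and 4 samples of normal skin. They were chosen by symbol: every gene whose name starts with Wnt, Fzd, Sfrp or Dkk followed by a number, together with Wif1, Frzb, Lrp5, Lrp6, Axin2 and Lef1. This rule took 44 of the 18193 genes on the array, namely 19 Wnt ligands, 10 Frizzled receptors, 2 co-receptors, 10 secreted antagonists, 2 target genes and Fzd10os, a transcript from the strand opposite Fzd10 that shares its name. Each gene was read from 1 of the 45037 probesets, sets of short probes against 1 transcript, and where a gene had several the one with the highest mean over all arrays was used.

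RNA of each sample was hybridised to 1 Affymetrix MOE430 2.0 array, and all values are log2 signals, so that a difference of 1 is a doubling. All mice were of the FVB background. Control skin (n = 4) came from wild type mice. The p53 tumors (n = 7) arose in k14Cre;p53loxP/loxP mice, in which the keratin 14 promoter drives Cre in the basal cells of stratified epithelia. The pRbp53 tumors (n = 5) arose in animals with k14Cre;p53loxP/loxP;pRbloxP/loxP, which also lose pRb, the product of Rb1, in the same cells. The stroma, vessels and immune cells of both kinds of tumor keep their alleles, and no age is given for any group in the sources used here. By histology the p53 tumors comprised 3 poorly differentiated, 1 undifferentiated, 1 spindle and 2 mixed carcinomas, and the pRbp53 tumors 4 spindle and 1 mixed.

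Wnt proteins are secreted, lipid-modified signals that bind a Frizzled receptor and the co-receptor Lrp5 or Lrp6, and in the canonical branch this stabilises beta-catenin, which then activates target genes with Tcf and Lef factors. Frizzled-related proteins and Wif1 bind the Wnt protein itself, whereas Dkk1, Dkk2 and Dkk4 bind the co-receptors. In skin this signalling starts hair follicle formation and drives hair growth, and its antagonists are known from the dermis and the resting follicle.

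The arrays had medians between 5.63 and 5.76. RNA was least intact in p53 tumor 7 and control skin 3 by the actin probes, whose 3′ signal exceeded the 5′ signal by 1.67 and 1.33, while the other arrays had gaps of 0.21 to 0.68. Control skin 2 and 4 were the most alike of the control pairs, with an SD of their difference of 0.22 against 0.41 to 0.57 in the other pairs. Signal of Csn2, a milk protein gene, was 8.75 to 13.67 in p53 tumors 2, 3, 4 and 5 and 9.83 in control skin 3, against 3.10 to 4.47 elsewhere. No source used here says whether each sample is a different animal, and p-values therefore cover the spread between these samples alone. Rb1, the gene floxed in the pRbp53 mice, had a signal of 8.98 to 9.54 in control skin, 7.57 to 8.50 in the p53 tumors and 7.10 to 7.94 in the pRbp53 tumors, ranges that overlap between the tumor genotypes.

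Markers of basal keratinocytes had a mean signal of 11.47 to 11.62 in control skin and of 5.61 to 12.14 in the tumors, where the lowest values were those of pRbp53 tumors 1 and 3. Signal from a whole piece of tissue does not tell fewer cells of a type from less RNA per cell.

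The first comparison set all 12 carcinomas against control skin. Of the 44 genes 6 were lower in the tumors, none was higher and 38 did not pass. The 6 were the ligands Wnt4 and Wnt3a, the receptors Fzd4 and Fzd10, and the Frizzled-related antagonists Sfrp4 and Frzb. Together they make 13.6% of the genes, while 13.2% of all probesets passed, 6.85% as lower and 6.36% as higher, at a limma adjusted p of 0.05, and 16.7% of all 18193 genes taken by their brightest probeset, so the share was not above that of the array. Without adjustment 8 genes had a limma p below 0.05, against 26.4% of all probesets. The median difference of the 44 genes was -0.09, against 0.07 over all probesets.

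The promoters of Fzd4, Frzb and Wnt4, each lower in the tumors, are shown as the 250 bases before the start of the gene, from RefSeq on GRCm38.p6. Capitals mark the letters CTTTGA, the core of the Tcf and Lef site, searched on both strands.

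Fzd4, chr7:89404116-89404365, plus strand: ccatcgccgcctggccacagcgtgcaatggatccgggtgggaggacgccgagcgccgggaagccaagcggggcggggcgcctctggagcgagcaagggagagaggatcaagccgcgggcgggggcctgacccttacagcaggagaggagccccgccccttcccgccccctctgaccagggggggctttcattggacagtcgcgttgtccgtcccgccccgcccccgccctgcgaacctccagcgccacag
Frzb, chr2:80447397-80447646, minus strand: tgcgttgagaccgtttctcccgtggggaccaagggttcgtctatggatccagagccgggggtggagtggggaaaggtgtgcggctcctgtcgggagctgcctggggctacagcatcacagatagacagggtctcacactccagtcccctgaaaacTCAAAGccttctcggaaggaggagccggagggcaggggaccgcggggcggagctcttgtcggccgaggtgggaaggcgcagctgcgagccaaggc
Wnt4, chr4:137277385-137277634, plus strand: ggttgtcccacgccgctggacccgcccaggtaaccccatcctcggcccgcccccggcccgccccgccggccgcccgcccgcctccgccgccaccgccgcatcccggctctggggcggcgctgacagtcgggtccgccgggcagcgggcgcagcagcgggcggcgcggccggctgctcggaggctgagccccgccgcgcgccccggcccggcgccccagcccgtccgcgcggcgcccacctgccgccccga

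The Frzb promoter held the letters once, on the opposite strand and 95 bases before the start, and those of Fzd4 and Wnt4 did not hold them. The promoters of Fzd10 and Wnt3a, also lower in the tumors but not shown, did not hold them either. Promoters of 29 of the 44 genes were read, 35 in all, and 6 of these held the letters, against 13.8% of all 32851 promoters. Any promoters of the group on a particular chromosome, the same for every gene, were left out of its count, while the 32851 were not filtered. G and C made up 72.8% of the bases shown for Fzd4, 64.4% for Frzb and 85.2% for Wnt4, against a median of 66.4% over the promoters of the group and 52.4% over all promoters.

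Wnt4, a ligand of the epidermis and of many developing organs, had signals of 9.15, 9.65, 10.08 and 9.57 in control skin, and its lowest, median and highest tumors were at 5.72, 6.79 and 8.74. The groups did not overlap, and the 3 highest tumors, between 8.34 and 8.74, were the 3 of mixed histology. In log2 units Wnt4 fell by 2.63 ± 0.53 (SE, limma adjusted p = 0.00327). A further probeset of Wnt4 fell by 2.06. Without the 5 arrays with Csn2 signal the difference was -2.32 ± 0.69 and the call was lost (limma adjusted p = 0.0526).

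Wnt3a, a canonical ligand, had low signals throughout, at 5.48, 5.71, 6.07 and 5.83 in control skin and 4.88, 5.11 and 5.49 as the lowest, median and highest of the tumors. Only pRbp53 tumor 4 reached the level of the lowest control. Wnt3a fell by 0.66 ± 0.12 (SE, limma adjusted p = 0.00163), and its probeset was among the dimmer ones, below the median of the array.

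Fzd4, the receptor of Norrin as well as of Wnt proteins and known from vessels and fat, had signals of 10.15, 9.96, 9.97 and 9.92 in control skin. Its tumors had 6.36, 6.91 and 8.27 as the lowest, median and highest signal, so that every tumor lay far below every control. Fzd4 fell by 2.88 ± 0.31 (SE, limma adjusted p = 7.2e-06), and all 3 of its probesets passed, with differences from -2.88 to -1.41. Fzd10, a receptor of few adult tissues, fell by 0.96 ± 0.13 (SE, limma adjusted p = 1.11e-04), from 7.07, 7.37, 7.04 and 7.33 in control skin to 5.87, 6.19 and 6.70. Its groups did not overlap either, but the other Fzd10 probeset, dim in all samples, differed by -0.06 and did not pass.

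The antagonists followed. Sfrp4, a secreted protein with a Frizzled-like domain that binds Wnt proteins, had signals of 8.29, 8.76, 8.67 and 9.27 in control skin and 5.69, 6.40 and 7.20 as the lowest, median and highest of the tumors. With no overlap it fell by 2.34 ± 0.21 (SE, limma adjusted p = 1.14e-06). Frzb, its relative first described in cartilage, had 7.08, 6.66, 6.52 and 7.64 in control skin and 3.74, 4.50 and 7.06 in the tumors. All but 2 tumors were at or below 4.77, while pRbp53 tumor 3 reached the control range and pRbp53 tumor 4 stood at 5.95. Frzb fell by 2.33 ± 0.48 (SE, limma adjusted p = 0.00393), and both of its probesets passed.

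**Figure D1:**
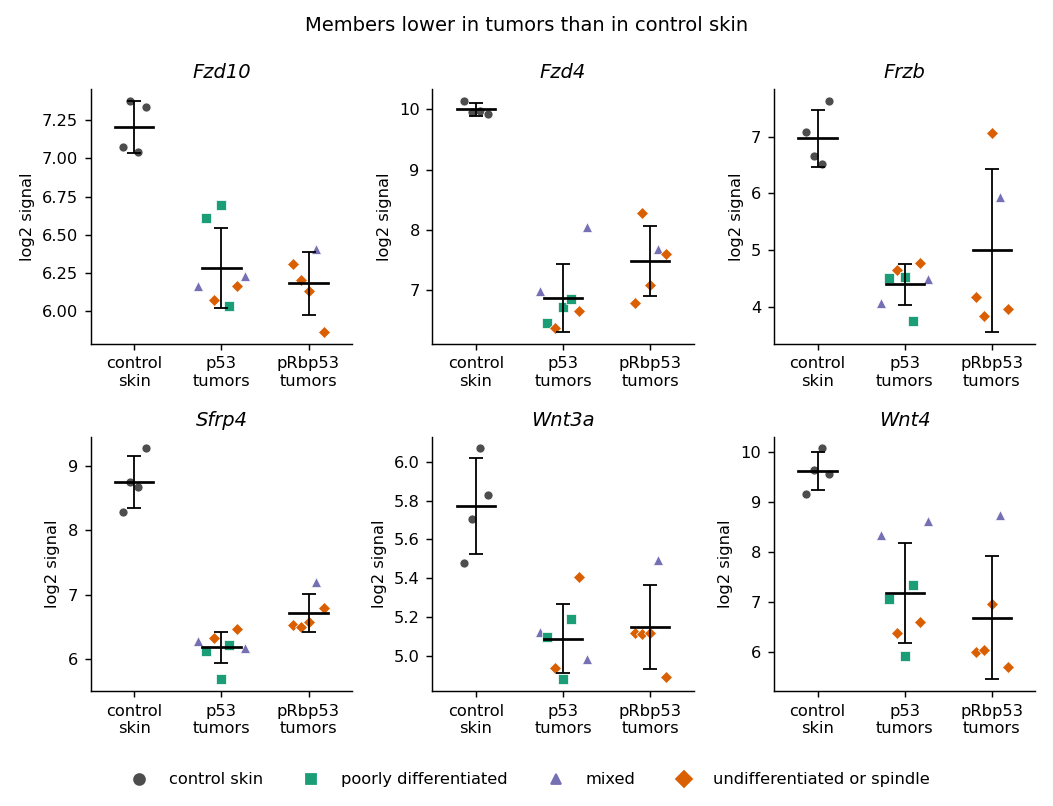
Log2 signal of the 6 genes that passed as lower in tumors, in control skin (n = 4), p53 tumors (n = 7) and pRbp53 tumors (n = 5). Points are samples, coloured by histology, long lines are means and bars are SD. For Fzd4, Sfrp4, Fzd10 and Wnt4 every tumor lies below every control sample, which 3.79% of all probesets show, whereas for Frzb pRbp53 tumor 3 lies within the control range.

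By the probeset used for each gene, 4 genes had groups without overlap, all lower in tumors. Of all probesets 3.79% lay apart as lower, 3.07% as higher and 6.86% in either direction. The call of all 6 genes held when any single array was left out, and each had the same direction in the p53 tumors and in the pRbp53 tumors when these were set against control skin separately. Both of those comparisons share the 4 controls. In the p53 tumors 7 genes passed, all lower, where 10.7% of all probesets did, and in the pRbp53 tumors 12 passed, 2 of them higher, where 18.3% did. Fzd4 differed by -3.14 in the p53 tumors and by -2.52 in the pRbp53 tumors, Sfrp4 by -2.56 and -2.02, Wnt4 by -2.42 and -2.92, Frzb by -2.58 and -1.98, Fzd10 by -0.92 and -1.02 and Wnt3a by -0.68 and -0.62. Among these only Frzb in the pRbp53 tumors did not pass (limma adjusted p = 0.0732).

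Control skin and tumors also differed in their tissues. Markers of skeletal muscle (5 of 5 lower) had a mean signal of 13.51 to 13.76 in control skin and 4.59 to 9.08 in the tumors. Those of adipocytes (3 of 3 lower) had 8.21 to 10.39 and 4.95 to 7.39, and those of differentiated keratinocytes (5 of 5 lower) had 12.77 to 13.02 and 4.84 to 9.66. Of 5 basal keratinocyte markers 2 passed as lower, and all 5 had a negative difference. Of 5 markers each, 1 passed as lower for endothelium (Tek), for the hair follicle bulge (Krt15) and for the hair shaft and matrix. None passed for fibroblasts or macrophages, and 1 of 2 Schwann cell markers passed as lower. The part of these tissues in the lower Wnt4, Fzd4, Sfrp4 and Frzb was not tested.

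The 6 largest differences that did not pass were those of Sfrp2, Fzd6, Wnt3, Axin2, Wnt2 and Wnt7b. Sfrp2, a fibroblast-derived Frizzled-related protein, had 6.95, 5.82, 7.27 and 6.22 in control skin and 4.31, 8.70 and 11.82 as the lowest, median and highest of the tumors. Its difference of 2.01 ± 1.15 (SE, limma adjusted p = 0.288) came with the tumors spread on both sides of the controls. Fzd6, a receptor that orients hair follicles, differed by -1.66 ± 0.75 (SE, limma adjusted p = 0.167). Wnt7b, an epidermal ligand, differed by -0.98 ± 0.46 (limma adjusted p = 0.188), its controls lying between 8.40 and 8.49 and only the undifferentiated p53 tumor 3 and the spindle p53 tumor 6, at 9.35 and 9.30, lying above them.

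Wnt3 and Wnt2 each had 1 tumor far above the others. Wnt3 had 4.35, 5.18, 3.91 and 5.58 in control skin and 3.04 to 3.25 in 11 of the tumors, but 7.28 in p53 tumor 2. Its difference was -1.30 ± 0.61 (SE, limma adjusted p = 0.191), and it passed as lower without that tumor. Wnt2, a ligand known from lung and endothelium, had 6.05, 6.98, 6.26 and 7.57 in control skin and 4.46 to 6.38 in 11 tumors, but 11.12 in p53 tumor 3. The difference of -1.07 ± 0.90 (limma adjusted p = 0.495) likewise passed as lower when that tumor was left out.

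Axin2, a feedback inhibitor and the most used readout of canonical Wnt signalling, had 8.80, 8.49, 9.01 and 8.51 in control skin and 4.62, 6.93 and 10.21 as the lowest, median and highest of the tumors. The highest, p53 tumor 4, and the lowest, p53 tumor 5, were both poorly differentiated, and the difference of -1.26 ± 0.74 did not pass (SE, limma adjusted p = 0.301). Lef1, the factor that binds beta-catenin in hair matrix cells, had 5.05 to 5.26 in control skin and 4.97 to 6.26 in the tumors, a difference of 0.23 ± 0.20 (limma adjusted p = 0.501), and its highest value was also that of p53 tumor 4. The co-receptors differed by -0.27 ± 0.36 for Lrp5 and 0.04 ± 0.30 for Lrp6. Neither passed, and the sign of the Lrp6 difference turned under several settings. A second Lrp6 probeset differed by 0.85 without passing. On it every tumor, the lowest at 6.69, lay above every control, the highest at 6.67. That probeset passed as higher in the p53 tumors against control skin, at 1.19 ± 0.32 (SE, limma adjusted p = 0.0349).

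**Figure D2:**
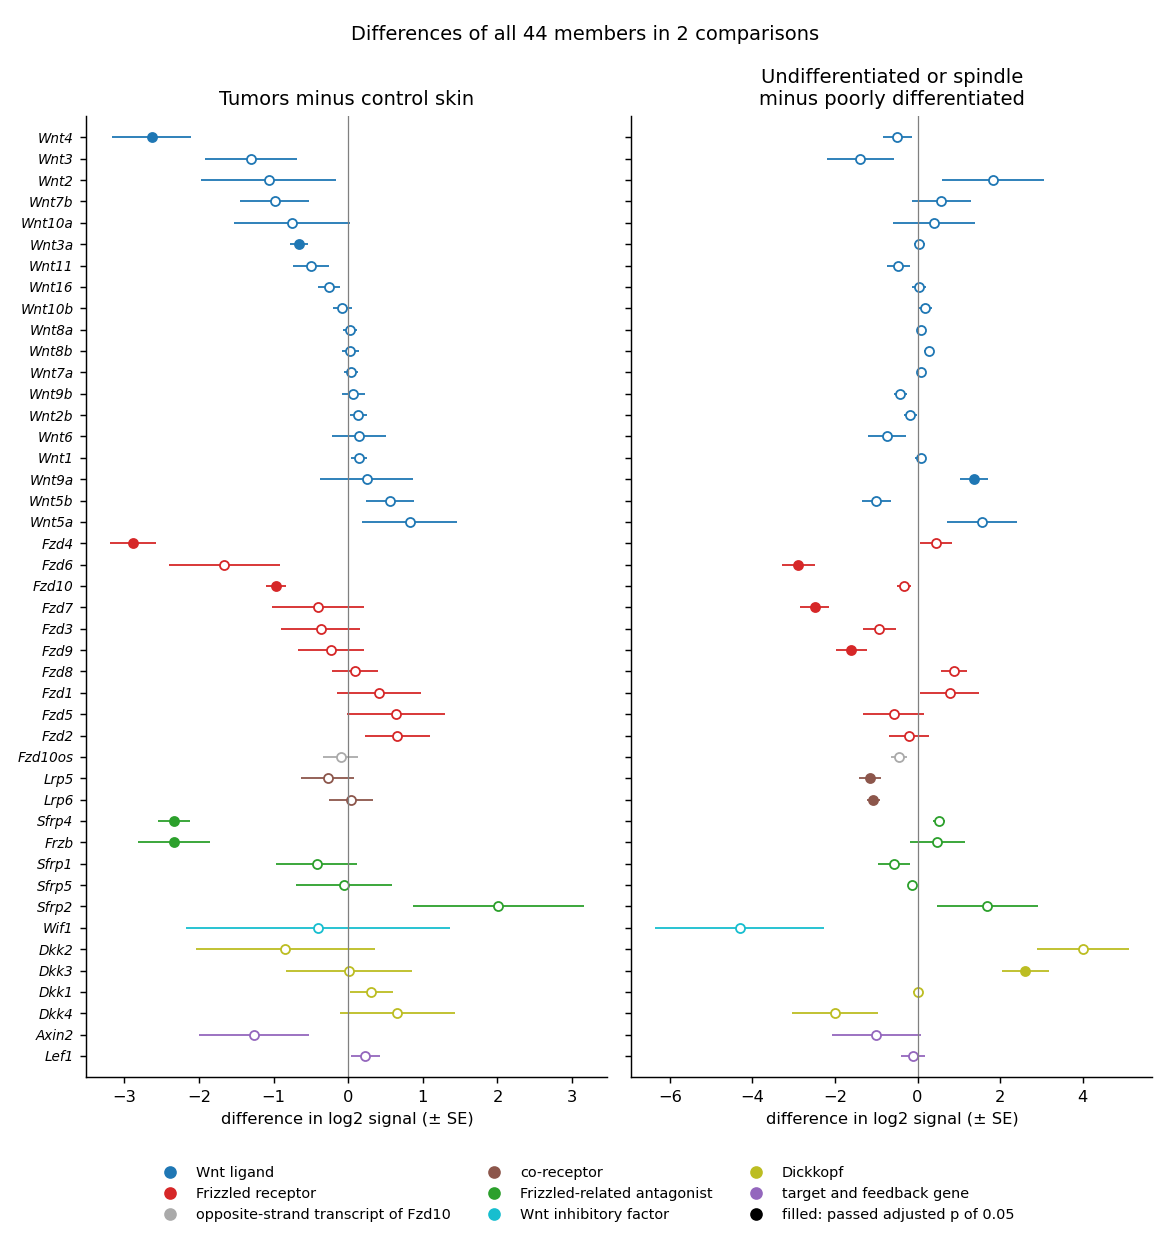
Difference in log2 signal of each of the 44 genes between tumors and control skin (left) and between undifferentiated or spindle and poorly differentiated tumors (right). Points are limma estimates, bars are SE and filled points passed an adjusted p of 0.05. Filled points number 6 on the left, all below 0, and 7 on the right, of which Dkk3 and Wnt9a lie above 0.

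Further genes of the pathway were read from lists of 68 measured genes: 5 passed as higher in tumors and 2 as lower, 10.3% in all, below the 16.7% of all genes. Ctnnb1, beta-catenin itself, rose by 0.49 ± 0.12, and Csnk1e, a kinase that acts on Dishevelled, rose by 0.74 ± 0.22. Ror2, a receptor of Wnt5a, rose by 2.17 ± 0.57, and among reported targets Trps1 rose by 2.09 ± 0.52 and Myc by 1.004 ± 0.318 (SE, limma adjusted p from 0.0137 to 0.048 for the 5 genes). The 2 lower genes were the follicular Wnt inhibitor Apcdd1, at -2.95 ± 0.75, and the receptor Tnfrsf19, at -3.99 ± 1.15 (limma adjusted p = 0.0156 and 0.0308). None of the 11 genes of Wnt release and R-spondin signalling and none of the 8 genes of planar polarity passed.

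The second comparison set the 5 pRbp53 tumors against the 7 p53 tumors. None of the 44 genes passed a limma adjusted p of 0.1, at which 0.198% of all probesets passed, and 4 genes had an unadjusted p below 0.05 in limma. The methods' t-test also gave none after adjustment, with 3 below 0.05 before it. Of all probesets 0.127% passed as higher, 0.0711% as lower, and 9.29% had an unadjusted p below 0.05. The 4 genes were Sfrp2, Sfrp4, Fzd8 and Lrp5, of which Sfrp4 and Fzd8 are named after their values were seen.

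Sfrp2 showed the largest difference. Its signals were 10.43, 10.97, 11.40, 7.74 and 11.82 in the pRbp53 tumors and 4.31, 6.72 and 9.34 as the lowest, median and highest of the p53 tumors. The 4 spindle pRbp53 tumors lay above every p53 tumor, and the mixed pRbp53 tumor 4 lay within the p53 range. The difference was 3.25 ± 0.94 (SE, 95% interval 1.20 to 5.31, limma unadjusted p = 0.00487, adjusted p = 0.297). Within undifferentiated or spindle tumors, 4 pRbp53 against 2 p53, it was 3.70 ± 0.53 (limma adjusted p = 0.128), and with histology as a covariate 3.22 ± 0.79. Against control skin Sfrp2 differed by 3.91 ± 0.76 in the pRbp53 tumors (limma adjusted p = 0.00697) and by 0.65 ± 0.87 in the p53 tumors, over the same 4 controls.

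Markers of fibroblasts, the cells that Sfrp2 is known from, had a mean signal of 12.26 to 13.92 in the pRbp53 tumors and 8.97 to 13.12 in the p53 tumors. All 5 had a positive difference and none passed. Markers of basal keratinocytes had 5.61 to 6.76 in the pRbp53 tumors and 6.06 to 12.14 in the p53 tumors. All 5 had a negative difference and Itga6, an integrin of basal cells, passed as lower, at -2.13 ± 0.32 (limma adjusted p = 0.0306). The part of either cell type in the Sfrp2 difference was not tested.

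Sfrp4 had 6.53, 6.50, 6.58, 7.20 and 6.80 in the pRbp53 tumors and 5.69, 6.22 and 6.47 as the lowest, median and highest of the p53 tumors. The genotypes did not overlap, the only 1 of the 44 genes of which this was true, as were 0.913% of all probesets and 0.446% in this direction, although their nearest samples were only 0.03 apart, and the difference was 0.54 ± 0.16 (SE, limma unadjusted p = 0.00482, adjusted p = 0.295). Fzd8, a receptor often used as a soluble Wnt trap, differed by 0.84 ± 0.27 (limma unadjusted p = 0.00862, adjusted p = 0.350), and passed as higher when p53 tumor 1, at 7.45 the highest of the p53 tumors, was left out. Lrp5 differed by -0.70 ± 0.30 (limma unadjusted p = 0.0375, adjusted p = 0.4996) and Lrp6 by -0.60 ± 0.30 (adjusted p = 0.572).

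The other large differences between genotypes were those of Fzd6 at -1.37 ± 0.78, Wnt9a at 1.28 ± 0.62, Dkk3 at 1.06 ± 0.92, Dkk4 at -0.85 ± 0.87 and Sfrp5 at 0.85 ± 0.72 (limma adjusted p from 0.559 to 0.812). Fzd6 turned to 0.092 with histology as a covariate. Dkk4 was high in p53 tumor 4 alone and Sfrp5 in pRbp53 tumor 4 alone, as described below. Wnt7b passed as lower in pRbp53 tumors when undifferentiated or spindle tumors alone were compared. Axin2 and Lef1 differed by -0.077 ± 0.865 and -0.025 ± 0.228, with 95% intervals of -1.97 to 1.81 and -0.52 to 0.47. Of the 68 further pathway genes none passed.

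The third comparison followed the loss of epithelial differentiation, with 6 undifferentiated or spindle tumors against 3 poorly differentiated ones. Of the 44 genes 7 passed, 2 as higher in the undifferentiated or spindle tumors and 5 as lower. The lower ones were the receptors Fzd6, Fzd7 and Fzd9 and both co-receptors, Lrp5 and Lrp6, while the higher ones were the ligand Wnt9a and the Dickkopf relative Dkk3. This makes 15.9% of the genes, while 9.12% of all genes, each taken by its brightest probeset, and 7.39% of all probesets passed, the latter with 3.4% as higher and 3.99% as lower. Without adjustment 14 genes had a limma p below 0.05, against 21.9% of all probesets, and the median difference was -0.12 against 0.01 over all probesets. A further 2 genes, Dkk2 and Sfrp4, had groups that did not overlap, which gave 4 higher and 5 lower in all, where 6.99% and 6.81% of all probesets, 13.8% in all, had the same.

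The 3 poorly differentiated tumors were all p53 tumors and all carried Csn2 signal, so that grade, genotype and Csn2 signal can be told apart only through the 2 undifferentiated or spindle p53 tumors, of which p53 tumor 3 had Csn2 signal. Markers of fibroblasts (5 of 5 higher) had a mean signal of 12.68 to 13.92 in the undifferentiated or spindle tumors and 8.97 to 11.37 in the poorly differentiated ones. Those of macrophages (5 of 5 higher) had 9.43 to 11.20 and 7.62 to 8.48. Those of the mammary gland (3 of 5 lower) had 4.11 to 8.09 and 8.19 to 11.54, and those of basal keratinocytes (1 of 5 lower, all 5 with a negative difference) had 5.61 to 7.55 and 6.64 to 11.21. The part of these cells in the differences by grade was not tested.

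Fzd6 had signals of 9.53, 9.17 and 9.57 in the poorly differentiated tumors and 5.798, 6.44 and 7.60 as the lowest, median and highest of the undifferentiated or spindle tumors. The poorly differentiated tumors overlapped control skin, which lay between 9.30 and 9.70, and the grades did not overlap. The difference was -2.89 ± 0.40 (SE, limma adjusted p = 0.00381). A second Fzd6 probeset passed with -1.91, and the dimmest of the 3 differed by 0.10 and did not pass.

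Fzd7, a receptor found in stem cells of several epithelia, had 10.40, 10.498 and 9.67 in the poorly differentiated tumors and 6.97, 7.69 and 8.55 in the undifferentiated or spindle ones. Here control skin, at 9.06 to 9.31, lay between the groups. The difference was -2.50 ± 0.35 (SE, limma adjusted p = 0.00446), and both probesets passed between grades. On the second Fzd7 probeset control skin, at 5.69 to 6.37, overlapped the undifferentiated or spindle tumors, at 5.62 to 6.04.

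Lrp6 had 9.21, 9.77 and 9.91 in the poorly differentiated tumors and a narrow range of 8.44 to 8.68 in the others, below control skin at 8.84 to 9.09. The difference was -1.07 ± 0.16 (SE, limma adjusted p = 0.00511), and both probesets passed between grades. Their place against control skin differed, however. On the second Lrp6 probeset the undifferentiated or spindle tumors had 6.69 to 7.18, above control skin at 6.42 to 6.67. Lrp5, the second co-receptor, had 6.54, 6.61 and 6.19 and 4.76, 5.30 and 6.02, a difference of -1.16 ± 0.27 (limma adjusted p = 0.0372). Fzd9 had 6.67, 6.37 and 8.42 and 5.39, 5.57 and 5.63, with p53 tumor 5 far above the rest, and a difference of -1.60 ± 0.38 (limma adjusted p = 0.0387). Fzd3 did not pass by its brightest probeset, at -0.93 ± 0.40 (limma adjusted p = 0.224). Of its 6 probesets 1 did pass, at -1.26 ± 0.21 (limma adjusted p = 0.00904).

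Dkk3, which carries the Dickkopf name but is not known to bind the co-receptors as its relatives do, had 6.78, 6.50 and 5.58 in the poorly differentiated tumors and 7.69, 8.76 and 10.24 as the lowest, median and highest of the others. Control skin, at 7.55 to 9.23, lay with the latter. The difference was 2.61 ± 0.58 (SE, limma adjusted p = 0.0285), and both probesets passed. Wnt9a, a ligand of joints and blood stem cell niches, had 5.803, 5.73 and 5.64 and 5.91, 7.18 and 7.77, a difference of 1.37 ± 0.35 (limma adjusted p = 0.0486), while its dimmer probeset differed by 0.23 and did not pass.

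**Figure D3:**
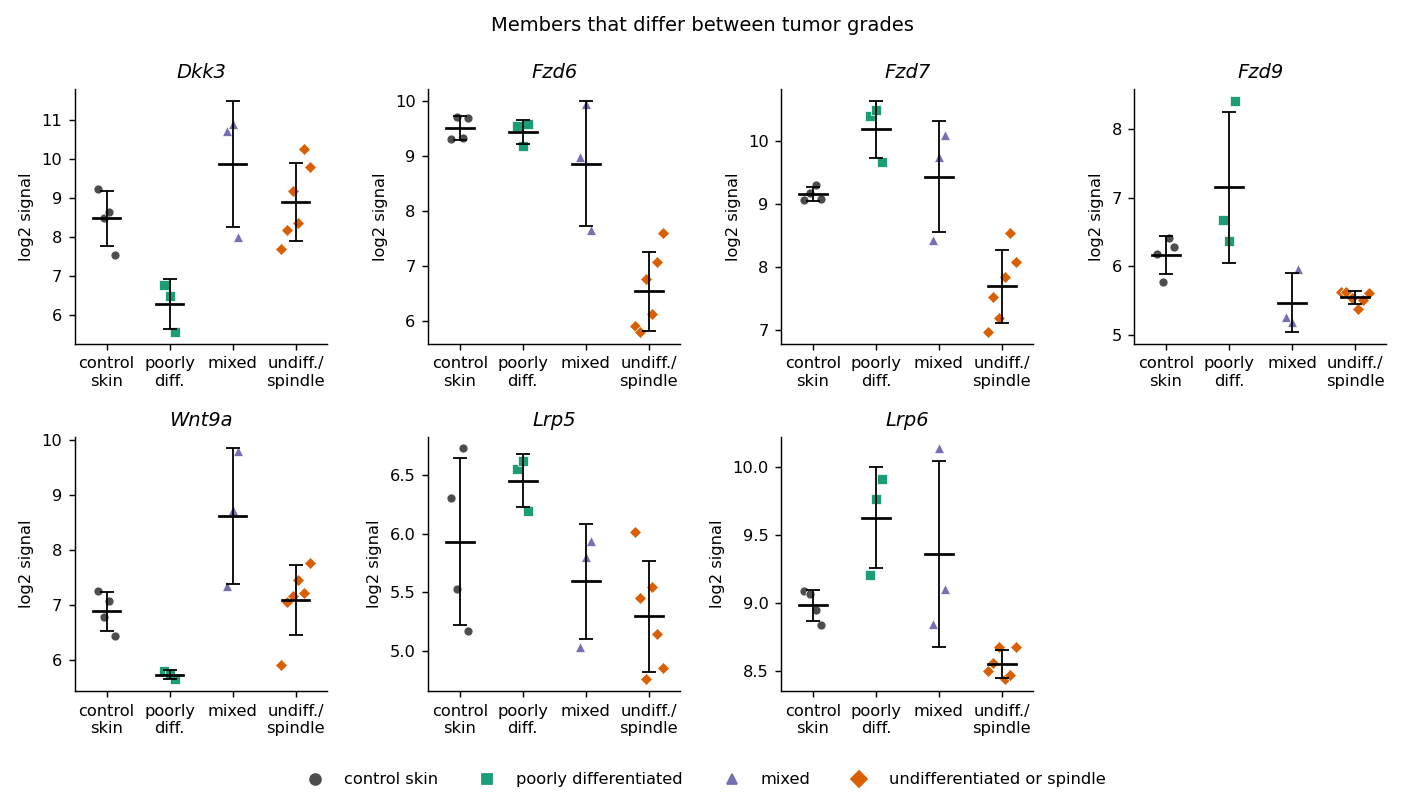
Log2 signal of the 7 genes that passed between tumor grades, in control skin (n = 4), poorly differentiated (n = 3), mixed (n = 3) and undifferentiated or spindle tumors (n = 6). Points are samples, long lines are means and bars are SD. For all 7 genes the undifferentiated or spindle tumors do not overlap the poorly differentiated ones, which 13.8% of all probesets show. Dkk3 and Wnt9a are higher in the undifferentiated or spindle tumors and the others are lower. The mixed tumors, shown for comparison, did not enter the test.

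The calls of Fzd6, Fzd7 and Lrp6 held when any single tumor was left out, and with genotype as a covariate, under which the other 4 calls, those of Dkk3, Fzd9, Lrp5 and Wnt9a, were lost (limma adjusted p from 0.161 to 0.258). Within the p53 tumors alone, 2 against 3, Fzd6 (-3.58 ± 0.18) and Fzd7 passed, and Lrp6 did not, at -1.10 ± 0.25 (limma adjusted p = 0.129). Since every poorly differentiated tumor is a p53 tumor, the covariate gives the same difference as the p53 tumors alone. The pRbp53 tumors change only the SE and p of that difference. With 1 tumor left out, Dkk3 was lost without p53 tumor 2, 4 or 5 or without pRbp53 tumor 1 or 5. Fzd9 held only without p53 tumor 4 or 5, Lrp5 only without p53 tumor 3 or 5, and Wnt9a only without p53 tumor 3. With the replicate number as a block no gene passed, and no probeset of the array did.

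The mixed tumors, left out of the test, had 8.98, 9.93 and 7.66 for Fzd6, 8.43, 9.76 and 10.10 for Fzd7 and 8.85, 10.14 and 9.10 for Lrp6. All of them lay above the highest undifferentiated or spindle tumor for Fzd6 and Lrp6, and 2 of 3 did for Fzd7. For Wnt9a they had 7.34, 8.72 and 9.79, above the poorly differentiated tumors, and with them counted among the latter the difference of Wnt9a was -0.080 ± 0.71.

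Of the genes that did not pass, Wif1 and Dkk2 had the largest differences by grade, while the 10 secreted antagonists had a median difference of 0.24, with 6 positive and 4 negative. Dkk2, a Dickkopf that binds the co-receptors and is known from the dermis, had 4.95, 4.04 and 4.59 in the poorly differentiated tumors and 5.57, 8.68 and 10.85 as the lowest, median and highest of the others. The groups did not overlap and the difference was 4.01 ± 1.11 (SE, limma adjusted p = 0.0656). Dkk2 passed with genotype as a covariate, at 5.55 ± 1.24, and within the p53 tumors, at 5.55 ± 0.55. Both values are the same difference, that between grades within the p53 tumors, with a different SE. Sfrp2 differed by 1.69 ± 1.23 (limma adjusted p = 0.491) but by -0.77 ± 0.96 with genotype as a covariate. Wnt5a, a ligand of the non-canonical branch, differed by 1.56 ± 0.85 with wide overlap. Wnt2 differed by 1.83 ± 1.24, with the poorly differentiated tumors at 4.46 to 4.99. Of the undifferentiated or spindle tumors only pRbp53 tumor 3, at 4.67, overlapped them, and p53 tumor 3, at 11.12, stood far above the rest.

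Wif1, which binds Wnt proteins outside the cell and is known from the hair follicle, spread most of all the genes, over 8.53 on the log2 scale. Control skin had 5.84, 7.30, 6.71 and 6.64. Of the tumors 5 had 8.66 to 11.54, these being p53 tumors 2, 4 and 7 and pRbp53 tumors 3 and 4, and the other 7 had 3.001 to 3.92, so that no tumor lay at the control level. High and low tumors occurred in both genotypes and in the poorly differentiated, the mixed and the undifferentiated or spindle tumors. By grade Wif1 differed by -4.31 ± 2.05 (SE, limma adjusted p = 0.267), with p53 tumor 5 at 3.001 and the other poorly differentiated tumors at 11.54 and 11.52, and without p53 tumor 5 it passed at -7.15 ± 1.47 (adjusted p = 0.0252).

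Axin2 changed its call in the same way. It had 8.89, 10.21 and 4.62 in the poorly differentiated tumors and 6.35, 6.60 and 8.46 in the others, a difference of -0.997 ± 1.072 (SE, limma adjusted p = 0.663). Without p53 tumor 5 the difference was -2.64 ± 0.58 (limma adjusted p = 0.0333). This fit, like that of Wif1 without the same tumor, kept only p53 tumors 2 and 4 as poorly differentiated. Both carried Csn2 signal. Lef1 differed by -0.11 ± 0.29.

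**Figure D4:**
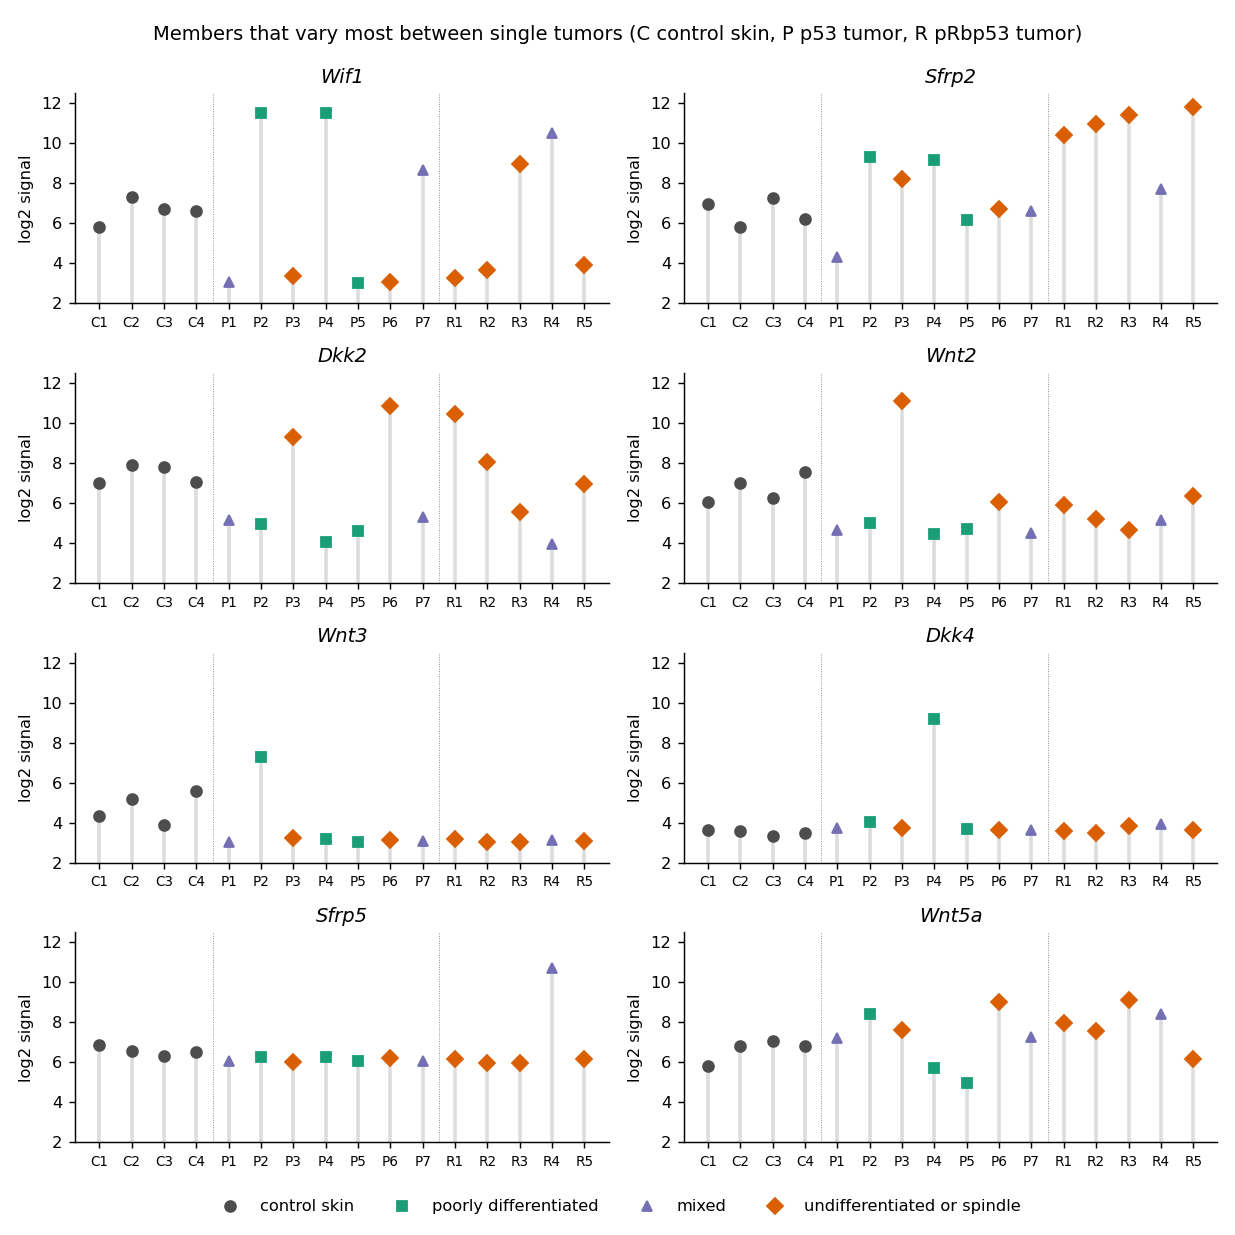
Log2 signal in each of the 16 samples for 8 genes that vary between single tumors, with control skin (C1 to C4), p53 tumors (P1 to P7) and pRbp53 tumors (R1 to R5) on the horizontal axis. Markers give the histology. Wif1 is at 8.66 or above in 5 tumors and at 3.92 or below in the other 7, whereas Wnt3, Dkk4 and Sfrp5 are high in 1 tumor each.

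Several ligands and antagonists were high in a single tumor. Dkk4, a Dickkopf induced by Wnt signalling, was at 9.21 in p53 tumor 4 and at 3.35 to 4.04 in all other samples, and its difference by grade was -1.995 ± 1.045. Sfrp5 was at 10.73 in pRbp53 tumor 4 and at 5.97 to 6.85 in the other samples, and without that tumor Sfrp5 passed as lower in tumors than in control skin. The same tumor had the highest Dkk1, an inhibitor of the co-receptors, at 5.82 against 3.37 to 4.03 elsewhere, and the highest Wnt9a. In p53 tumor 4 the high Dkk4 stood beside the highest Axin2 and Lef1 of the series.

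At the other end Wnt8a, Wnt7a, Wnt1, Wnt8b, Wnt2b, Wnt10b and Wnt9b each spanned less than 1 on the log2 scale over all 16 samples, from 0.47 for Wnt8a to 0.92 for Wnt9b. All but Wnt7a were among the 15 of the 44 genes whose probesets were below the median of the array. Frzb, Wnt3a, Lrp5, Lef1, Dkk1, Dkk4, Wnt3, Wnt5b and Wnt16 were the others. No detection call is part of the values used here, and a dim probeset may not measure its transcript. When the brighter part of the array was fitted alone, 4 of 29 genes passed between tumors and control skin, 13.8% against 20.5% of the probesets fitted, and 7 of 29 by grade, 24.1% against 13.1%. By grade these were not the same 7 genes as in the full fit, since Lrp5 was not fitted and Dkk2 passed.

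By grade, 1 of the 68 further pathway genes passed as higher and 10 as lower, 16.2% in all, against 9.12% of all genes. The higher one was Wls, the carrier that brings Wnt proteins to the cell surface, at 1.55 ± 0.34 (SE, limma adjusted p = 0.0268). Rnf43 and Znrf3, ubiquitin ligases that remove Frizzled receptors from the surface, differed by -4.82 ± 0.43 and -1.77 ± 0.43, and Lgr4, an R-spondin receptor that restrains them, by -2.87 ± 0.46. The extracellular inhibitor Sostdc1 differed by -4.14 ± 1.03 and the matrix protein Tinagl1 by -3.26 ± 0.65. The nuclear cofactors Bcl9l and Tle4 differed by -0.996 ± 0.232 and -1.27 ± 0.23, the receptor Tnfrsf19 by -4.94 ± 0.62, and the planar polarity cadherins Celsr1 and Celsr2 by -4.70 ± 0.57 and -3.17 ± 0.18 (limma adjusted p from 3.83e-05 to 0.0454 for the 10 lower genes).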

How the data were processed

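The authors processed the arrays with RMA, which corrects background, normalizes between arrays and summarises probes, and deposited log2 signals; the version is not stated. From 45101 deposited probesets the 64 controls of the array were dropped. The platform annotation named 1 gene for 34945 of the rest, more than 1 for 932 and no gene for 9160. Samples were grouped by title and labelled histology. The 44 genes had 85 probesets, and 27 genes had several.

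Linear models were fitted to all 45037 probesets with limma 3.58.1 in R 4.3.3, with Benjamini-Hochberg adjustment over all of them, two-sided, at 0.05, or 0.1 for genotype as in the study. Nothing was adjusted over the 44 genes alone, and fits were tested on simulated data. Lists are described by counts and medians without a test.

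The genes, lists and the rule for naming were chosen with earlier results of these data known. The rule names every gene that passed, the 6 largest differences that did not in each comparison, Axin2, Lef1, Lrp5 and Lrp6, and up to 4 passing genes of each pathway list. Fzd8, Fzd3 by grade, Sfrp4 between genotypes, Csn2 and Rb1 fall outside it, as do the single-tumor and narrow-range genes. Kremen2 and Tcf7 were not analysed here.

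The number of arrays limits precision. Replicate numbers were not taken to pair samples. Of 13 same-number pairs 3 had deviations correlated above 0.1, and pairs of different number were not compared with them. Alternatives covered normalization, filter, prior, array weights, block, the methods' t-test, summary per gene, threshold, subsets and covariates, and each array left out. Leaving out the arrays with Csn2 above 8 was chosen after seeing the data. Figures used matplotlib 3.10.9.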

Additional observations from a re-analysis of the deposited data

Results flagged for a closer look

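Within control skin, p53 tumors and pRbp53 tumors, 10 of 132 checks found a highest or lowest sample set far from the rest of its group by Dixon's 95% criterion, which chance meets in about 1 group in 20. Dkk4 was 9.21 in p53 tumor 4, with the next p53 tumor at 4.04. Wnt2 was 11.12 in p53 tumor 3, with the next at 6.04, and Wnt3 was 7.28 in p53 tumor 2, with the next at 3.25. In p53 tumor 7, which had the widest actin gap of all arrays, Fzd4 was 8.04 and Sfrp1 was 11.23, the highest of the p53 tumors for each gene. In pRbp53 tumor 4 Sfrp5 was 10.73, Wnt9a 9.79 and Dkk1 5.82, with the next pRbp53 tumors at 6.15, 7.77 and 3.89. In control skin Fzd5 was 6.18 in sample 4, the lowest, and Wnt8a was 4.15 in sample 1, the highest, gaps of 0.42 and 0.33 to the nearest sample.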

How the results depend on the processing

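Between tumors and control skin 6 genes passed, and 6 to 7 did when each array was left out in turn. With array weights 12 passed, 2 of them as higher, or 27.3% where 32.0% of all probesets passed, and with the pRbp53 tumors alone also 12, or 27.3% where 18.3% did. Between genotypes 0 passed, 0 to 1 with each array left out, and 1 within undifferentiated or spindle tumors. By grade 7 passed, 3 to 7 with each array left out, 3 by the methods' t-test, 2 by its Welch form (Fzd6 and Fzd7, with Lrp6 lost at an adjusted p of 0.258), 3 at an adjusted p of 0.01, 3 within the p53 tumors and 4 with the mixed tumors counted as poorly differentiated. The replicate numbers were not taken to pair the samples. With the number as a block 6 genes passed in the first comparison, 0 in the second and 0 by grade, where 0 probesets passed at all. Leaving out the arrays with Csn2 was not run by grade, since no poorly differentiated tumor remains. The cause of these changes was not tested.

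Signs turned for these small or uncertain differences. Between tumors and control skin Lrp5 was 0.019 in the p53 tumors alone, and Lrp6 was -0.10 with array weights, -0.11 with the block, -0.074 without control skin 3 and p53 tumor 7, -0.13 without the arrays with Csn2, -0.31 in the pRbp53 tumors alone and -0.062 to 0.092 with each array left out. Between genotypes Axin2 was 0.65 with histology as a covariate, 0.53 within undifferentiated or spindle tumors, 0.068 without the arrays with Csn2 and -0.55 to 0.38 with each array left out. Without the arrays with Csn2 Dkk3 was -0.81 and Dkk4 0.00086. With histology as a covariate Dkk4 was 0.020, Fzd6 0.092 and Lef1 0.058. Within undifferentiated or spindle tumors Fzd6 was 1.04, Lrp6 0.035 and Sfrp5 -0.058. Lef1 was 0.057 with the block and -0.13 to 0.11 with each array left out, and Sfrp5 was -0.083 to 1.11. By grade Axin2 was 0.95 and Lef1 0.37 with the block, and -2.64 to 0.16 and -0.36 to 0.29 with each array left out. Sfrp2 was -0.77 with genotype as a covariate and the same within the p53 tumors, and Wnt9a was -0.080 with the mixed tumors counted as poorly differentiated. No probeset has a known background level here, so dim genes limit what low values show.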
